A study of Mus musculus with 4 samples.

Results

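Heat shock proteins and their helpers keep other proteins folded, and 85 genes of these families were followed here over 4 blood cell populations of the mouse. The members were the probe sets annotated to a single gene symbol of the Hsp70 and Hsp110 (Hspa, Hsph), Hsp90, mitochondrial chaperonin (Hspd1, Hspe1), CCT, J protein (Dnaja, Dnajb, Dnajc), small heat shock protein (Hspb) or Bag families. The rule uses gene symbols only. It gave 204 of 45037 probe sets, which stand for 85 of 18193 genes.

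Each population was measured on 1 single-colour Affymetrix array, and the stated purpose of the arrays was to check cell-type expression profiles of donor cells for nuclear transfer. Granulocytes were bone marrow cells of high granularity with strong Gr-1 staining, 99.4% pure when judged by morphology. For the other populations, cells with c-Kit were enriched on beads and stained for lineage antigens of T cells (CD3, CD4, CD8), B cells (B220), red cells (Ter119) and myeloid cells (CD11b, Gr-1). LT-HSC, the long-term repopulating stem cells, were the CD34-negative part of the LKS gate, that is of lineage-negative cells with Sca-1 and c-Kit. ST-HSC, the short-term repopulating stem cells, were its CD34-positive part, and haematopoietic progenitor cells (HPC) were sorted as LKS-. All 4 populations were thawed, chosen by morphology and packed, 50 or 100 cells at a time, into emptied zonae pellucidae. RNA of 50 to 200 cells then went through 2 rounds of linear amplification. The sources used here give no strain, age or sex of the mice.

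Chaperones bind unfolded stretches of protein and release them in cycles of ATP binding and hydrolysis. Hsp70 proteins take substrates from J proteins, which start their ATP hydrolysis, and Bag and Hsp110 proteins exchange the nucleotide again. Chaperonins enclose a substrate in a chamber, the CCT ring in the cytosol and the Hspd1 and Hspe1 pair in mitochondria, while Hsp90 acts late on kinases and receptors. Heat shock factors raise many of these genes under stress through repeated GAA units in promoters, and chaperones of the endoplasmic reticulum respond instead to unfolded protein there. In blood formation, progenitors divide and make much protein, whereas granulocytes are mature and no longer divide.

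The arrays were on a common scale, with a median signal of 114 to 132. Signals below 120.1, the median of all signals pooled, were set to this floor before log2. With 1 array per population no test could be made and no p-value is given, so the spread between probe sets of the same gene served as the only measure of error, and it applies to single genes, not to medians over genes. The SD of these log2 differences was 0.85 for granulocytes against the other arrays, 0.57 for HPC against the stem cell arrays and 0.64 for LT-HSC against ST-HSC. Over the members alone it was 1.01 (31 genes), 0.50 (34 genes) and 0.68 (35 genes). It holds no spread between animals or sorts. In such bulk RNA, fewer cells of a type and less RNA per cell cannot be told apart.

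The markers of the sorted cells mostly followed the labels. Summed over 8 granulocyte markers such as S100a8 and Ltf, the signal was 324770 in granulocytes against 570 (HPC), 19346 (LT-HSC) and 569 (ST-HSC). On the LT-HSC array 5 of the 8 were above the floor, and S100a8 reached 6783. The rest, Mmp9, Cxcr2 and Itgam, were under the floor there, at 65.8, 34.3 and 7.90, against 48874, 2113 and 2570 in granulocytes. Summed over 8 stem and progenitor markers, the signal was 1427 in granulocytes and 35620 to 51774 elsewhere. Mpo alone had 32023 in HPC, 18718 in ST-HSC and 1149 in LT-HSC. The RNA signal of Cd34 was 2384 in LT-HSC, sorted as CD34-negative, against 9778 (ST-HSC), 5190 (HPC) and 17.2 (granulocytes). The 4 measured B-lineage markers summed to 8740 in LT-HSC, 4737 in HPC, 1100 in granulocytes and 493 in ST-HSC. Most of the LT-HSC sum came from Vpreb1 (4815) and Cd79b (3562). Cd79a (176) and Pax5 (187) were near the floor there, and Pax5 was higher in granulocytes (255). The T and NK markers (4 genes) summed to 419 to 706, the mature erythroid markers (2 of 4 measured) to 75.1 to 208 and the oocyte markers (6 genes) to 404 to 989. Of 7 cumulus cell markers, 4 were at least 2-fold higher in granulocytes, with a sum of 8578 against 270 to 960 and Inhba alone at 6566. The ratio of 3′ to 5′ signal of Actb was 5.75 in granulocytes and 12.2 to 16.1 elsewhere, and that of Gapdh 12.4 in granulocytes and 12.4 to 17.8 elsewhere. The part of these differences in the values of the chaperone genes was not tested.

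Of the 85 genes, 60 were above the floor on all 4 arrays and 8 on none. The latter, Cct6b, Cct8l1, Dnajb3, Dnajb7, Dnajc5g, Hspa12b, Hspa1l and Hspb9, have no measured level here. Among the 60, granulocytes were the lowest array for 37 genes and the highest for 13. HPC were the highest for 25, ST-HSC for 19 and LT-HSC for 3. Among all 8069 genes above the floor on 4 arrays, granulocytes were the lowest for 41.7% and the highest for 34.5%, while HPC were the highest for 24.4%, ST-HSC for 22.2% and LT-HSC for 18.9%. A gene with several probe sets is represented by its brightest one, and 53 of the 85 genes had more than 1.

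Some promoters of these genes carry the repeats that heat shock factors bind, and a few are shown here to set beside the signals of their genes. RefSeq promoter windows of GRCm38.p6, from 250 bases before to 50 bases after a start site, were at hand for 70 of the 85 genes. All motifs were sought on both strands. The heat shock element of 3 units, GAANNTTC followed after 2 free bases by another GAA, lay in windows of Dnajb6, Hspd1, Hspe1 and Hsph1 and in 0.603% of all 32851 windows. The element of 4 units, in which a TTC and 2 free bases precede those 3, lay in those of Hspd1 and Hspe1 and in 0.0152% of all windows. The neighbouring genes Hspd1 and Hspe1 run in opposite directions, their windows overlap, and both hold the same copy. The 2-unit GAANNTTC, also part of the longer ones, lay in windows of 17 of the 70 genes and in 7.86% of all windows, and TTCNNGAA in 8 of the 70 genes and in 8.52%. In the following lines, 5′ to 3′ on the strand of the gene, the capitals mark the element. The Hspe1 stretch is chr1:55088053-55088082 on the plus strand, with the element 89 to 72 bases before the start. The Dnajb6 stretch is chr5:29735844-29735872 on the plus strand, with the element 46 to 34 bases before the start. The Hspa1a stretch is chr17:34972213-34972300 and the Hspa1b stretch chr17:34959295-34959382, both on the minus strand, with the element 104 to 97 bases before the start.
Hspe1: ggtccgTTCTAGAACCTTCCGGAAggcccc
Dnajb6: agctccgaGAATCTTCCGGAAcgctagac
Hspa1a: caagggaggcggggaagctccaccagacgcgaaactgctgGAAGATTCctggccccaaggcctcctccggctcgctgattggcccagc
Hspa1b: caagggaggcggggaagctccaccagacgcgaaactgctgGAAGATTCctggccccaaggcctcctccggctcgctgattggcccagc
The printed Hspa1a and Hspa1b stretches are the same, and their whole windows were identical at 296 of 300 bases. A match is a string of letters and not evidence of binding.

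The endoplasmic reticulum stress element, CCAAT and CCACG with 9 free bases between them, lay in windows of Dnajc3, Hsp90b1 and Hspa5 and in 0.119% of all windows. These 3 genes encode the Hsp90 of that compartment, its Hsp70 and a J protein, and they differed in how their signals ran over the arrays. The Hsp90b1 stretch, chr10:86705493-86705694 on the minus strand, holds 2 elements, 212 to 194 bases before the start and, on the other strand, 107 to 89 bases before it. The Hspa5 stretch is chr2:34771985-34772083 and the Dnajc3 stretch chr14:118937787-118937885, both on the plus strand, with the element 65 to 47 and 105 to 87 bases before the start. Capitals mark the element.
Hsp90b1: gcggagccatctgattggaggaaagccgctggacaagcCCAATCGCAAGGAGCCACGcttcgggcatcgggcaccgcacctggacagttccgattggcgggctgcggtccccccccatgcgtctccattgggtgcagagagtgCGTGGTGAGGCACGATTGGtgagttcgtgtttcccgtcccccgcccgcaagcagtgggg
Hspa5: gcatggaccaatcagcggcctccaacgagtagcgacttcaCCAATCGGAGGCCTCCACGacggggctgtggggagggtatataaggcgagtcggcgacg
Dnajc3: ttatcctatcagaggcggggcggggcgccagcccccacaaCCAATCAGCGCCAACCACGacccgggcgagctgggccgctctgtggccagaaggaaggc

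In granulocytes, a part of the chaperone genes had lower signals than in all 3 immature populations. They included the mitochondrial Hsp70 gene Hspa9, the inducible Hsp70 genes, both genes of the mitochondrial chaperonin and all 7 measured CCT subunits. A gene was counted when granulocytes were at least 2-fold apart from each of the other 3 arrays, in the same direction. Of the 85 genes, 26 (30.6%) were lower and 2 (2.35%) higher, against 12.7% and 8.90% of all genes. Of the 51 bright members, those whose mean reached the 75th percentile of pooled signals, 22 (43.1%) were lower and 2 higher, against 28.1% and 12.2% of all bright genes. At 4-fold, 11 of the 85 genes were lower and 0 higher, against 972 and 521 of all 18193 genes. Among the 51 bright members these counts were 11 and 0, against 935 and 296 of 6713 bright genes. The median log2 difference from the mean of the other arrays was -0.54 over the 77 genes measured there and -0.05 over all genes, and among bright genes -0.93 and -0.39.

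The direction of the count held under other scalings while its balance moved. With arrays scaled to a common 75th percentile, 18 members were lower and 4 higher, and the median of all genes was 0.13. With scaling on the hybridization controls, 32 were lower and 1 higher, and the median of all genes was -0.35. Over all genes, the share of lower among counted genes was 58.9% as deposited, 47.6% on the common 75th percentile and 79.4% on the hybridization controls. For the members it was 92.9%, 81.8% and 97.0%.

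**Figure D1:**
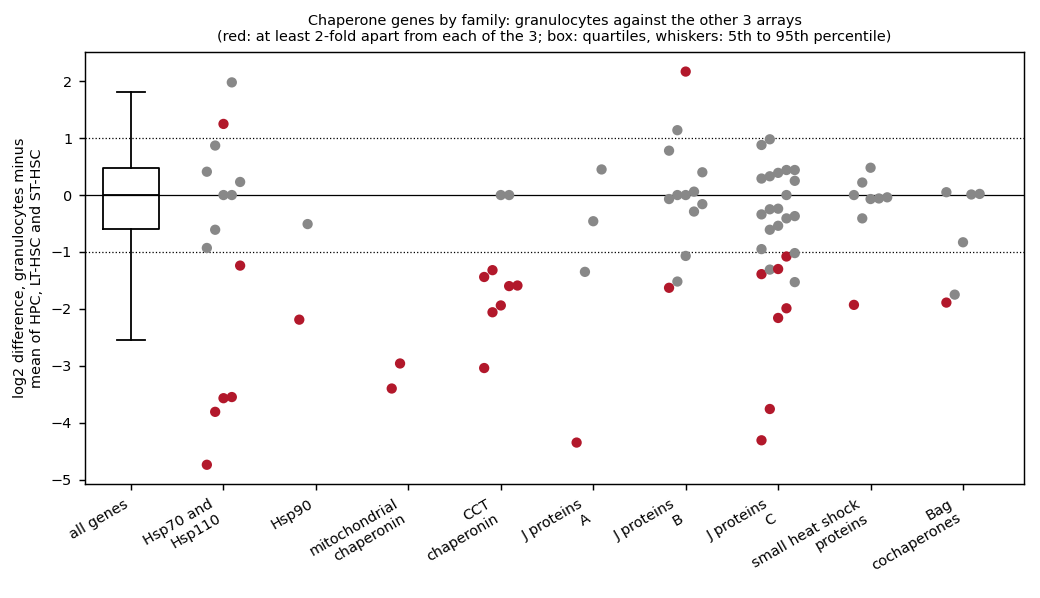
Log2 difference of each chaperone gene (granulocytes minus the mean of HPC, LT-HSC and ST-HSC) by family, with all genes as a box of quartiles and whiskers from the 5th to the 95th percentile. Red points are the genes at least 2-fold apart from each of the 3 arrays, and dotted lines mark 2-fold. The mitochondrial chaperonin and CCT families lie below 0 apart from the CCT genes under the floor, while the class B J proteins and small heat shock proteins spread around 0.

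Among the 14 Hsp70 and Hsp110 genes, 5 were lower in granulocytes and 1 higher, with a median of -0.77 over the 12 measured. Hspa9, the Hsp70 that pulls proteins into mitochondria, had a signal of 548 in granulocytes against 16665 (HPC), 15151 (LT-HSC) and 12320 (ST-HSC). Granulocytes stood apart from the other 3 arrays, 22.5-fold below the nearest. A further probe set of Hspa9 had 344, 3058, 2266 and 3056 on the same arrays, and another 455, 2826, 3399 and 1846, so granulocytes were lowest on these as well, at smaller ratios. Hsph1, the Hsp110 that recycles Hsp70, had 994, 18071, 9110 and 9523. It was 9.17-fold lower in granulocytes than on the nearest array and was highest in HPC.

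Hspa1a and Hspa1b are the stress-inducible Hsp70 genes with the shared promoter stretch printed above. Hspa1a had 975 in granulocytes against 20136 (HPC), 14508 (LT-HSC) and 5318 (ST-HSC). Hspa1b had 1072, 22133, 19630 and 7848 on the same arrays. The smallest ratios to granulocytes were those of ST-HSC, 5.46-fold for Hspa1a and 7.32-fold for Hspa1b. Since the genes are near-identical copies, their probe sets may read both transcripts, and they are not independent of each other. The other probe sets of Hspa1b had 539, 12538, 7122 and 1440, and 863, 20815, 11919 and 3118, in the same order of arrays.

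Hspa8, the constitutive cytosolic Hsp70, had 14021 in granulocytes against 34049 (HPC), 31411 (LT-HSC) and 34049 (ST-HSC). It was 2.24-fold lower in granulocytes, and below 2-fold under 4 of 9 alternative treatments of the data. Other probe sets of Hspa8 had 6393, 15794, 9010 and 14908, and 14249, 28133, 22115 and 26857. Both were lowest in granulocytes but within 2-fold of LT-HSC. A dim one had 91.6, 283, 162 and 1065. Hspa2, an Hsp70 best known from the testis, was the opposite case with 1024, 356, 451 and 501, 2.04-fold higher in granulocytes. On the hybridization-control scaling its log2 difference was 0.60.

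Other Hsp70 and Hsp110 genes did not separate granulocytes by 2-fold. Hspa5, the Hsp70 of the endoplasmic reticulum, had 20981 in granulocytes against 20317 (HPC), 12527 (LT-HSC) and 22284 (ST-HSC), so granulocytes lay within the range of the others. Hspa14, a ribosome-associated Hsp70, had 3391, 2908, 2030 and 2832. Hspa4, an Hsp110 relative, had 5760, 9104, 7529 and 9868 on its brightest probe set. A second probe set of Hspa4 had 130, 5589, 7400 and 2550. Its granulocyte signal lay below 138, the highest signal on that array of a bacterial control that should be absent, so no fold is given, but its difference was larger than that of the brightest probe set. Hspa13, a microsomal Hsp70, had 1846, 4739, 2960 and 3121 on its brightest probe set and 1308, 215, 301 and 526 on another, with opposite directions. Hspa12a had 257, 194, 9.80 and 97.4, with both stem cell arrays under the floor.

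Hspa4l, a further Hsp110 relative, had 3579 in granulocytes against 470 (HPC), 2126 (LT-HSC) and 753 (ST-HSC). It was 1.68-fold above the nearest array and so was not counted. Its other 4 probe sets were also highest in granulocytes, at 2608, 4149, 2571 and 609 against 884, 349, 1122 and 470 on the next array.

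**Figure D2:**
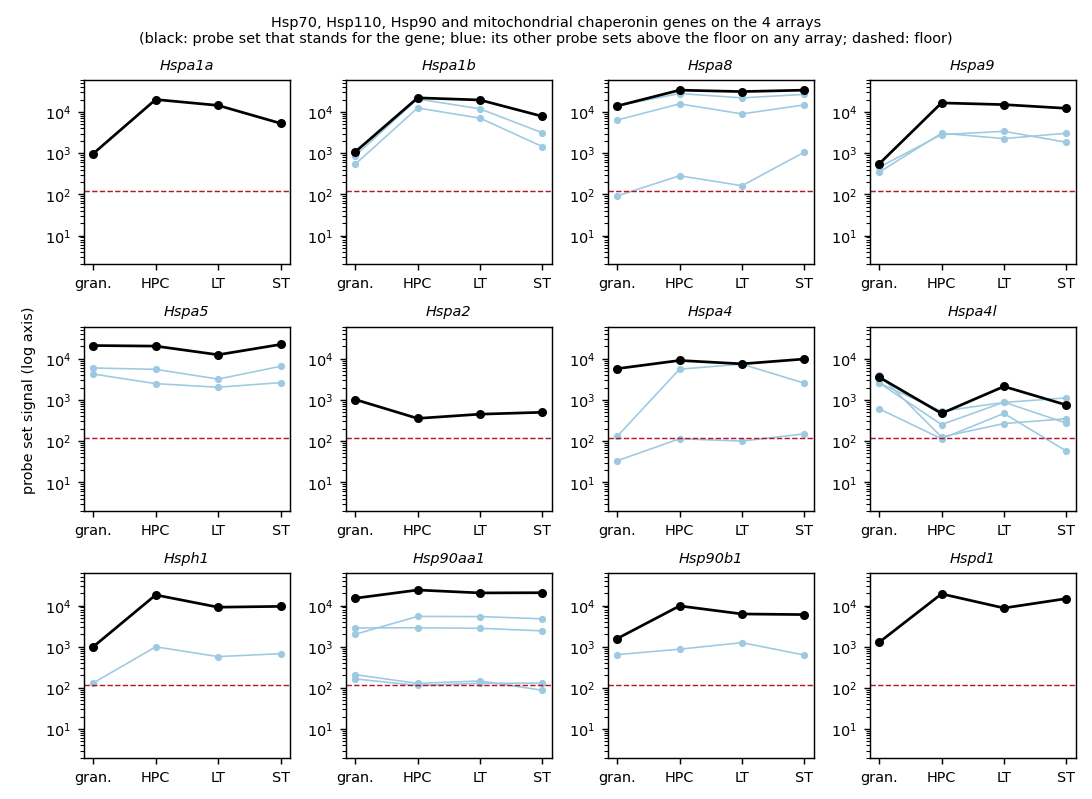
Probe set signal (log axis) on the 4 arrays for 12 Hsp70, Hsp110, Hsp90 and mitochondrial chaperonin genes, 1 point per array, with lines that only join the points of a probe set. Black is the probe set that stands for the gene, blue its others, and the dashed line is the floor of 120.1. Hspa9, Hspa1a, Hspa1b, Hsph1 and Hspd1 are lowest at granulocytes, while Hspa5 does not and Hspa4l is highest there.

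Of the Hsp90 genes, Hsp90b1, the form in the endoplasmic reticulum, had 1568 in granulocytes against 9778 (HPC), 6229 (LT-HSC) and 6023 (ST-HSC). It was 3.84-fold lower in granulocytes than on the nearest array. Hspa5, whose promoter window holds the same element, was not. The second probe set of Hsp90b1 had 640, 869, 1253 and 625, where granulocytes lay within the range. Hsp90aa1, the stress-inducible cytosolic form, had 15017, 23810, 20231 and 20466, with granulocytes lowest but within 2-fold. Another of its probe sets had 2003, 5434, 5397 and 4751, and another 2845, 2883, 2793 and 2421. The first of these put granulocytes more than 2-fold below, and the second within the range of the others.

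Both genes of the mitochondrial chaperonin were lower in granulocytes, with a median of -3.18. Hspd1, which forms its barrel, had 1274 in granulocytes against 19165 (HPC), 8694 (LT-HSC) and 14722 (ST-HSC), 6.82-fold lower than the nearest. Hspe1, its lid, had 269, 2267, 1751 and 2301, 6.52-fold lower, and its second probe set had 13.3, 478, 363 and 541. In both genes HPC and ST-HSC were above LT-HSC.

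All 7 measured CCT subunits, which fold actin and tubulin among others, were lower in granulocytes, with a median of -1.60. Cct5 had 1317 in granulocytes against 12435 (HPC), 9096 (LT-HSC) and 11181 (ST-HSC), 6.90-fold lower than the nearest. Cct4 had 3618, 15760, 14973 and 14600, 4.04-fold lower. Cct6a had 2547, 9596, 8769 and 11112, 3.44-fold lower. Its second probe set had 3434, 8564, 5823 and 9224, lowest in granulocytes but within 2-fold of LT-HSC. On the brightest probe sets of these subunits the 3 immature populations lay close together and granulocytes well apart.

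Cct7 had 5679, 17477, 16700 and 17185 on granulocytes, HPC, LT-HSC and ST-HSC, 2.94-fold lower in granulocytes. Cct2 had 6088, 19746, 15105 and 21102, 2.48-fold lower. Cct3 had 9437, 27421, 21878 and 28270, 2.32-fold lower. In these 3 subunits granulocytes were lowest and LT-HSC second lowest. Cct8 had 1083, 3021, 2255 and 2884, 2.08-fold lower. All 7 stayed lower under each scaling, but Cct2, Cct3 and Cct8 were within 2-fold on the common 75th percentile and Cct8 also after quantile normalization. With the median over probe sets, 4 of the 7 were at least 2-fold lower. Not every probe set ran that way, since a dim one of Cct3 had 630, 135, 8.10 and 264, and one of Cct4 had 1338, 1397, 1292 and 1555.

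The subunit gene Tcp1, whose symbol lies outside the rule, had 3359 in granulocytes against 20686 (HPC), 12804 (LT-HSC) and 15687 (ST-HSC). It was in a list of 14 other chaperonin and prefoldin genes, of which 3 were lower in granulocytes and 0 higher, with a median of 0.07. Of all genes 12.7% were lower and 8.90% higher, and of bright genes 28.1% and 12.2%. Pfdn4, a subunit of the prefoldin complex that hands actin and tubulin to CCT, had 249, 912, 739 and 839. Prefoldin genes did not follow as a set, and Pfdn5 had 5614, 4364, 5156 and 4654.

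**Figure D3:**
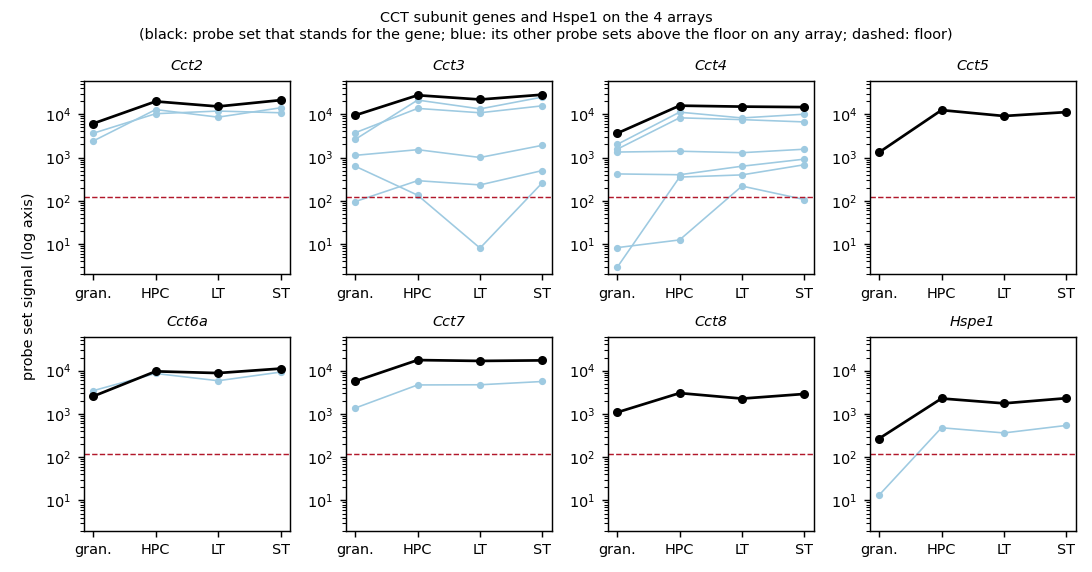
Probe set signal (log axis) on the 4 arrays for 7 CCT subunit genes and Hspe1, 1 point per array, with lines that only join the points of a probe set. Black is the probe set that stands for the gene, blue its others, and the dashed line is the floor of 120.1. Every black line is lowest at granulocytes, from 2.08-fold (Cct8) to 6.90-fold (Cct5) below the nearest array.

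J proteins choose the substrates and sites at which Hsp70 works, and they were less uniform. Of 4 class A genes, 1 was lower in granulocytes, of 13 class B genes 1 was lower and 1 higher, and of 27 class C genes 7 were lower and 0 higher. Their medians were -0.90, -0.07 and -0.48. With the median over probe sets, 1 class C gene was at least 2-fold higher and 4 were lower. Dnaja3, the mitochondrial partner of Hspa9, had 10.3 in granulocytes against 2845 (HPC), 2774 (LT-HSC) and 1881 (ST-HSC). Since granulocytes were under the floor, it was at least 15.7-fold lower. Another of its probe sets had 149, 104, 37.0 and 108, near the floor and in the opposite direction.

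The brightest probe sets of the cytosolic class A genes stayed within 2-fold. Dnaja1 had 13899 in granulocytes against 12418 (HPC), 8161 (LT-HSC) and 10324 (ST-HSC), and Dnaja2 had 7126, 10552, 9449 and 9380. Other probe sets differed from these. One of Dnaja1 had 4464, 5356, 7356 and 6188, with granulocytes lowest instead of highest. Of Dnaja2, one had 450, 945, 987 and 948 and another 57.8, 274, 584 and 520, both more than 2-fold lower in granulocytes.

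Dnajb9, a J protein of the endoplasmic reticulum that serves the removal of misfolded protein, had 5862 in granulocytes against 1016 (HPC), 1508 (LT-HSC) and 1442 (ST-HSC). It was 3.89-fold higher in granulocytes, on its only probe set, and remained at least 2-fold higher under all 9 alternatives. Of these, the probe set choices and the bright filter could not change its value. Dnajb2, a J protein with ubiquitin-binding motifs, had 184, 548, 538 and 625, 2.92-fold lower. Dnajb1, the cytosolic partner of inducible Hsp70, had 5203, 12454, 9523 and 10941, with granulocytes lowest but within 2-fold of LT-HSC. Its other probe set had 3608, 830, 774 and 1326, so the probe sets of Dnajb1 gave opposite directions. Dnajb6, whose promoter element is printed above, had 7963, 9224, 6346 and 10019, with granulocytes inside the range of the rest. Dnajb4, a close relative of Dnajb1, had 1675, 3179, 4429 and 7884, with ST-HSC highest and granulocytes lowest but within 2-fold of HPC.

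Of the class C genes, Dnajc6, the auxilin that uncoats clathrin vesicles, had 151 in granulocytes against 2621 (HPC), 2661 (LT-HSC) and 3846 (ST-HSC). It was 17.3-fold lower in granulocytes, but its other probe sets were under the floor except for 297 in ST-HSC. Dnajc9, a histone chaperone, had 222, 3019, 2085 and 4384, 9.38-fold lower. Of the 2 granulocyte signals, that of Dnajc6 lay near the absent-control signal of 138. Dnajc1, a J protein of the endoplasmic reticulum membrane, had 364, 2107, 826 and 1741, 2.27-fold lower than LT-HSC and further below the other arrays. Its call kept 2-fold under only 4 of 9 alternatives.

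The remaining 4 class C genes had smaller differences. Dnajc18 had 129 in granulocytes against 786 (HPC), 635 (LT-HSC) and 380 (ST-HSC). Its granulocyte signal was below the absent-control signal of 138, so no fold is given, its other probe sets did not separate granulocytes, and the difference was 0.00 with the floor at the 75th percentile. Dnajc21, which acts in ribosome assembly, had 227, 693, 521 and 485, 2.14-fold lower, but another probe set had 745, 201, 442 and 187. Dnajc15, of mitochondrial import, had 220, 594, 453 and 714, 2.05-fold lower. Dnajc7, which binds Hsp70 and Hsp90, had 686, 1429, 1544 and 1396, 2.04-fold lower. Bright class C genes within 2-fold included Dnajc5, the cysteine string protein, with 8434, 6541, 6354 and 5775, and Dnajc8, which is linked to splicing, with 7277, 10189, 8608 and 10243. Dnajc14 had 2070, 864, 1233 and 1083, 1.68-fold above the nearest array, and so was not counted. Its other probe sets had 1500, 477, 292 and 632, and 1214, 361, 464 and 517, both more than 2-fold higher in granulocytes.

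Small heat shock proteins, which hold unfolded proteins without ATP, were mostly dim. Of 8 genes, 1 was lower in granulocytes and 0 higher, with a median of -0.06. That gene was Hspb11, also known as a subunit of intraflagellar transport, with 47.1 in granulocytes against 334 (HPC), 572 (LT-HSC) and 506 (ST-HSC), at least 2.78-fold lower. Hspb1 had 658, 552, 1027 and 548, with no separation of granulocytes.

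Of the 6 Bag genes, Bag5 was lower in granulocytes, with 13.3, 295, 365 and 825 in granulocytes, HPC, LT-HSC and ST-HSC, at least 2.46-fold. Bag1 had 2717, 2696, 2066 and 3231, so granulocytes fell among the others. Bag3, a heat shock factor target that works in autophagy, had 375, 265, 403 and 488. Bag6, which guards tail-anchored and misplaced membrane proteins, had 919, 1092, 992 and 694. Neither of the last 2 separated granulocytes.

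Agreement between probe sets bounds these calls. Of the 26 lower genes, 16 had another probe set above the floor on some array. In 8 of these 16, all such probe sets had the same direction, and in 3 (Dnaja3, Cct3 and Dnajc21) at least 1 had the opposite direction. In 3 of the 26 the granulocyte signal was under the floor. The genes Hspa9, Hsph1, Hspa1a, Hspa1b, Hspd1, Hspe1, Cct5, Cct7 and Dnajc9 were at least 2-fold lower under all 9 alternatives. However, Hspa1a, Hspd1, Cct5 and Dnajc9 have 1 probe set each, so the probe set choices could not change their values. The bright filter also changes no value of a gene that it keeps.

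**Figure D4:**
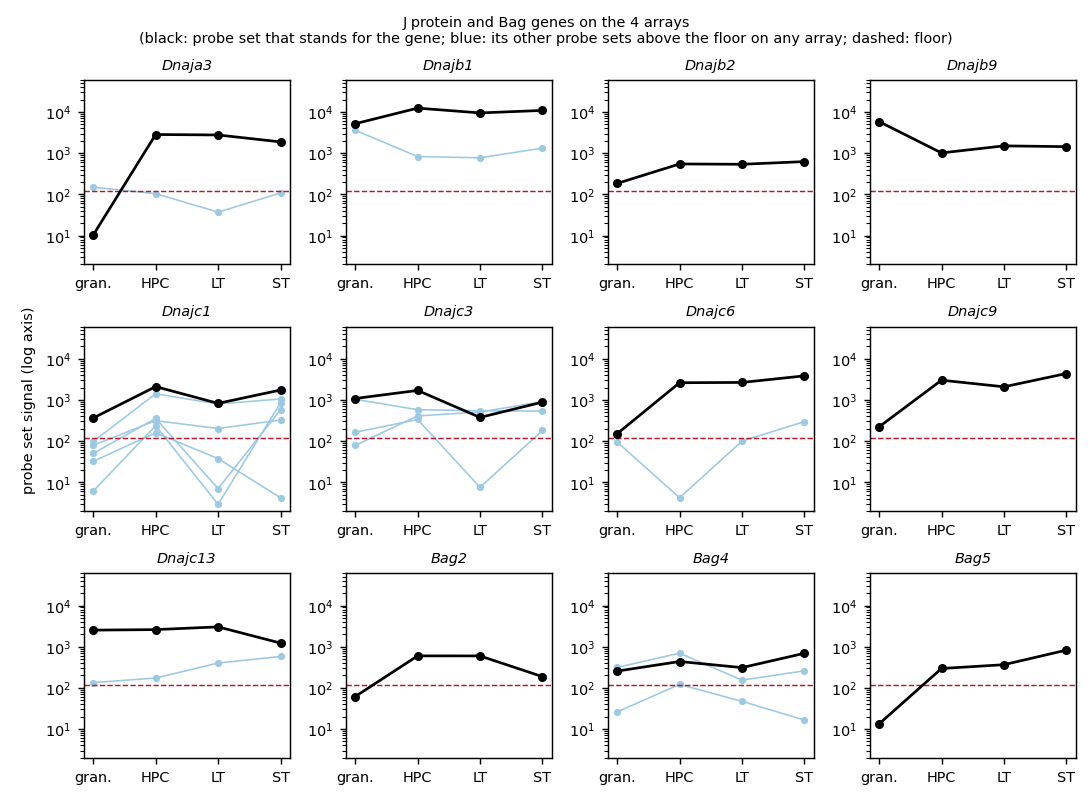
Probe set signal (log axis) on the 4 arrays for 9 J protein and 3 Bag genes, 1 point per array, with lines that only join the points of a probe set. Black is the probe set that stands for the gene, blue its others, and the dashed line is the floor of 120.1. Dnaja3, Dnajc6, Dnajc9 and Bag5 are lowest at granulocytes, Dnajb9 is highest there, and Dnajc13 and Bag2 are higher in LT-HSC than in ST-HSC.

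Partners of the members were followed through lists of genes put together by function. For the granulocyte counts in these lists, the shares over all genes were 12.7% lower and 8.90% higher, and over bright genes 28.1% and 12.2%. Of 20 measured cochaperones of Hsp70 and Hsp90, 6 were lower in granulocytes and 0 higher, with a median of -1.0. Stip1, which links Hsp70 to Hsp90, had 159 in granulocytes against 1722 (HPC), 1482 (LT-HSC) and 1362 (ST-HSC). Chordc1, an Hsp90 cochaperone, had 646, 7687, 4742 and 4039. Nudc, a further one, had 448, 6756, 4600 and 7438. Others stayed close, such as Ahsa1, the activator of Hsp90's ATP hydrolysis, with 5041, 4670, 3343 and 4462.

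Of 14 further mitochondrial chaperones and proteases, 5 were lower in granulocytes and 0 higher, with a median of -1.03. Trap1, the mitochondrial Hsp90, had 194 in granulocytes against 1650 (HPC), 1597 (LT-HSC) and 2258 (ST-HSC). Clpp, the subunit of a matrix protease, had 31.5, 1142, 1150 and 1020. Pam16, part of the import motor with Hspa9, had 1308, 4904, 4958 and 4160. In each of these the granulocyte array stood below the other 3.

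Of 18 measured folding genes of the endoplasmic reticulum, 8 were lower in granulocytes and 0 higher, with a median of -1.36. Canx, the lectin chaperone calnexin, had 2490 in granulocytes against 14216 (HPC), 10203 (LT-HSC) and 12939 (ST-HSC). Calr, its soluble relative, had 2952, 13763, 7172 and 7730. Pdia6, a disulfide isomerase, had 616, 7466, 3732 and 4840. Among members of that compartment, Hsp90b1 and Dnajc1 were also lower in granulocytes, Hspa5 and Dnajc3 did not separate them, and Dnajb9 was higher there.

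Regulators of the stress responses were measured as well. Of 4 measured genes of the heat shock factor list, 0 were lower or higher, with a median of 0.46. They were Hsf2, Hsf4, Hsf5 and Hsbp1, and Hsf1 was not among them. Hsf2 had 182 in granulocytes and 65.2 to 80.4 elsewhere, Hsf4 had 231 and 138 to 204, and Hsf5 had 170 and 61.6 to 126. At signals this near the floor, the count does not show whether the Hsf genes changed. Only Hsbp1 was brighter, with 2186 in granulocytes and 1252 to 2363 elsewhere. Of 10 stress kinases and response factors, 2 were lower and 1 higher, with a median of -0.16. Eif2ak1, the kinase that slows translation when haem is short, had 1807 in granulocytes against 302 (HPC), 322 (LT-HSC) and 150 (ST-HSC). Of 16 immediate early genes, which respond to handling and other stimuli within minutes, 8 were higher in granulocytes and 0 lower, with a median of 1.27. Fos had 21297, 926, 1578 and 5119. Thus the granulocyte array had high immediate early and low inducible Hsp70 signals, and the part of handling in either was not tested.

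Few genes of these families, and few of all genes, set HPC apart from both stem cell populations. Of the 85 genes, 0 were at least 2-fold higher in HPC than on each stem cell array and 2 (2.35%) lower, against 2.12% and 2.69% of all genes. The counts of members are therefore near the background. The median log2 difference was 0.12 over 77 genes and 0.03 over all genes. On the common 75th percentile 4 were higher and 1 lower, and on the hybridization controls 2 and 2, so this balance depended on the scaling. The LT-HSC array had 5 of 8 granulocyte markers above the floor. Against ST-HSC alone, without that array, 8 members were higher and 4 lower, against 6.47% and 6.21% of all genes. Over all genes, the share of lower among counted genes was 56.0% as deposited, 41.2% on the common 75th percentile and 42.2% on the hybridization controls. For the members these shares were 100%, 20.0% and 50.0%, and 50.0% after quantile normalization.

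The lower genes in HPC were Dnajb14, a membrane J protein of the endoplasmic reticulum, and Dnajc16. Dnajb14 had 672 in granulocytes against 136 (HPC), 374 (LT-HSC) and 554 (ST-HSC), 2.75-fold below the nearest stem cell array. Its other probe set had 612, 295, 300 and 100, with HPC between the stem cell arrays. Dnajc16 had 16.5, 108, 513 and 427, at least 3.55-fold lower, but its other probe set had 290, 403, 221 and 115, with HPC above both stem cell arrays. Both calls therefore depended on the probe set.

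Within 2-fold of the nearest stem cell array, several Hsp70-system genes were highest in HPC. Hsph1 had 18071 in HPC against 9110 in LT-HSC and 9523 in ST-HSC. Hspa1a had 20136 against 14508 and 5318, and Hspa1b 22133 against 19630 and 7848, so that HPC lay nearer to LT-HSC than to ST-HSC. The median was 0.28 over the 12 measured Hsp70 and Hsp110 genes, 0.14 over the 7 CCT genes and -0.24 over 11 class B J proteins.

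LT-HSC and ST-HSC differed in the inducible Hsp70 genes, which were higher in LT-HSC, and in a few J protein and Bag genes in both directions. Of the 85 genes, 6 (7.06%) were at least 2-fold higher in LT-HSC and 5 (5.88%) lower, against 7.28% and 5.41% of all genes. These shares are close to the background. The median log2 difference was -0.15 over 73 genes and -0.00 over all genes. At 4-fold there was no member in either direction, against 235 higher and 126 lower of all 18193 genes. On the hybridization controls 7 were higher and 1 lower, the median of all genes was 0.17 and that of the members 0.06, so the sign of the members' median turned. On the common 75th percentile 6 were higher and 6 lower. Over all genes, the share of lower among counted genes was 42.6% as deposited, 52.4% on the common 75th percentile and 27.5% on the hybridization controls, and for the members it was 45.5%, 50.0% and 12.5%. The LT-HSC array also had 5 of 8 granulocyte markers above the floor (a sum of 19346 against 569 in ST-HSC). Its B-lineage marker sum was 8740 against 493, mostly from Vpreb1 and Cd79b. The part of these marker signals in the differences was not tested.

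Hspa1a was 2.73-fold and Hspa1b 2.50-fold higher in LT-HSC than in ST-HSC, and the other Hspa1b probe sets 4.95-fold and 3.82-fold. Both genes kept at least 2-fold under all 9 alternatives, but the probe set choices could not change the value of Hspa1a, which has 1 probe set. Their signals in granulocytes (975 and 1072) were below those of ST-HSC (5318 and 7848). The part of the granulocyte and B-lineage marker signals of the LT-HSC array in these 2 genes was not tested. Hspa4l was 2.82-fold higher in LT-HSC, with 2126 against 753, and highest in granulocytes. Of its other probe sets, those with 884 against 273 and 470 against 57.1 ran the same way, while those with 267 against 349 and 870 against 1122 ran the opposite way.

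Bag2, which inhibits the ubiquitin ligase that works with Hsp70, had 61.4 in granulocytes against 598 (HPC), 596 (LT-HSC) and 187 (ST-HSC). It was 3.19-fold higher in LT-HSC than in ST-HSC, and close to its HPC signal. Dnajc12 had 67.6, 349, 342 and 27.3, at least 2.85-fold higher in LT-HSC. Dnajc13, an endosomal J protein, had 2525, 2599, 3029 and 1224, 2.47-fold higher, so that ST-HSC stood below the other 3 arrays. Its other probe set had 134, 173, 400 and 578, with ST-HSC highest.

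Of the 5 genes lower in LT-HSC, Dnajc3, an inhibitor of eIF2 kinases and a J protein of the endoplasmic reticulum, had 1083 in granulocytes against 1703 (HPC), 376 (LT-HSC) and 886 (ST-HSC). It was 2.36-fold lower in LT-HSC, the lowest of the 4 arrays. LT-HSC was also the lowest array for Hspa5 (12527 against 22284 in ST-HSC), whose promoter window holds the same element, at less than 2-fold. Hsp90b1, the other gene with that element, did not follow. It had 6229 in LT-HSC and 6023 in ST-HSC, and 1253 and 625 on its second probe set. Further probe sets of Dnajc3 had 510 against 903, 7.50 against 182 and 546 against 536. Bag4, which silences death receptors, had 255, 436, 310 and 691, 2.23-fold lower, and Bag5 was 2.26-fold lower (365 against 825). Each of these Bag calls kept 2-fold under 4 of the 8 alternatives that gave a value. Dnajc1 was 2.11-fold lower (826 against 1741) and Dnajc9 2.10-fold lower (2085 against 4384). For Dnajc1 and Dnajc9 granulocytes were lower still, with 364 and 222.

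In the lists of partners, LT-HSC against ST-HSC gave 3 higher and 0 lower of 20 cochaperones. It gave 0 higher and 3 lower of 14 chaperonin and prefoldin genes, and 0 higher and 1 lower of 14 mitochondrial genes. Of 18 folding genes of the endoplasmic reticulum, 0 were higher and 2 lower. The shares over all genes were 7.28% higher and 5.41% lower. Among the counted genes, Unc45b, a chaperone of myosin, had 1042 in LT-HSC and 232 in ST-HSC. Sdf2l1, a partner of Hspa5, had 311 and 660. Of 10 stress kinases and response factors 2 were higher, including Trib3, a pseudokinase of the stress response, with 5762 in LT-HSC, 768 in ST-HSC, 2699 in HPC and 379 in granulocytes. Of 16 immediate early genes 2 were lower, including Fos with 1578 against 5119.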

How the data were processed

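Total RNA of 4 sorted mouse populations was measured on 1 single-colour Affymetrix array each. The authors deposited 1 linear intensity per probe set. Which software summarised the probes, and any detection calls, is not given in the sources used here. Per the labels' protocols, RNA was amplified in 2 rounds, which favours 3′ ends, and from few cells adds noise. The 2% trimmed mean was 500.00 on every array, and no further scaling was applied.

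After removal of 64 controls, 45037 of 45101 probe sets remained. GEO's platform annotation gave 1 symbol for 34945, several for 932 and none used for 9160, and all 85 member symbols were found in RefSeq (GRCm38.p6) by Entrez number. Values under the floor of 120.1 were set to it before log2. A gene's size was its smallest log2 difference to the reference arrays where all had 1 sign, otherwise 0, and 2-fold counted. Where 1 of both sides lay there, the fold is a lower bound ("at least"). The main counts rest on this brightest-probe-set choice.

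Members and lists were chosen with earlier results of these data known. Values per array were named for members of at least 2-fold in any comparison, with bright examples within 2-fold and up to 6 examples per list. Disagreement between probe sets was a further ground in the Hsp70 and Hsp110, Hsp90, chaperonin and Bag families only. Thus J protein and small heat shock protein genes below 2-fold whose probe sets disagree, such as Dnajc2, Dnajc11 and Hspb8, were not all described. Ahsa1, Pfdn5, Hsf2 and the examples within 2-fold beyond that rule were chosen after their values were seen, as were the other probe sets described. Alternatives were other floors, scalings, probe set choices, a bright filter, a 4-fold count and the mean of the reference arrays. Leaving out the LT-HSC array as a reference was added after seeing the data. The procedure was tested on simulated data with large planted changes in genes of high signal, which does not measure its error for calls near 2-fold. Tools were matplotlib 3.10.9, pandas 2.3.3, numpy 2.4.6 and Python 3.11.15. Promoter windows were RefSeq's, and 15 member genes had none at hand.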

Additional observations from a re-analysis of the deposited data

How the results depend on the processing

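With 1 array per population, none could be left out within a group, and array-to-array noise has no measure. No paired analysis was possible because the labels carry no replicate numbers. Signals near the floor have no order. Over 9 alternatives the median of the members ranged from -1.08 to -0.30 for granulocytes, from 0.01 to 0.29 for HPC and from -0.27 to 0.06 for LT-HSC against ST-HSC. The cause of the following changes was not tested.

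Of 26 genes lower in granulocytes, the count was 16 with the median over probe sets and 11 at 4-fold, and 18 to 33 elsewhere. Of these 26 genes, 14 kept 2-fold with the median over probe sets, 17 with the first probe set by name and 18 on the common 75th percentile. The count of 2 higher became 4 on the common 75th percentile, 1 on the hybridization controls, 5 with the median over probe sets, 4 with the first probe set, 0 at 4-fold and 4 against the mean of the reference arrays. Dnaja3 turned to 0.31 with the first probe set.

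For HPC, the count of 0 higher became 4 on the common 75th percentile, 2 on the hybridization controls, 1 after quantile normalization, 1 without cross-hybridizing probe sets, 2 against the mean and 8 without the LT-HSC array as a reference. The count of 2 lower became 0 with the floor at the 75th percentile, 1 on the common 75th percentile, 1 after quantile normalization, 0 with the median over probe sets, 0 among bright genes, 0 at 4-fold, 4 against the mean and 4 without the LT-HSC array. Dnajc16 turned to 0.86 with the floor at the 25th percentile, 1.07 on the common 75th percentile and 1.01 after quantile normalization.

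For LT-HSC against ST-HSC, the count of 6 higher became 0 at 4-fold. The count of 5 lower became 3 with the floor at the 75th percentile, 1 on the hybridization controls, 3 with the first probe set, 3 among bright genes and 0 at 4-fold. Hspa4l turned to -0.37 with the first probe set.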
